A study of Homo sapiens with 8 samples.

Results

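EDC4 is a scaffold of the decapping complex, and its knockdown was compared with a control siRNA in cells whose RNA editors are sent to processing bodies (P-bodies). The comparison covers the 7137 genes that are listed in both knockdown editing tables and had at least 200 reads in each of the 4 libraries of the A-to-I table, out of 10476 genes listed in both and 11000 in either. These genes are called members here. They were chosen by their reads in the A-to-I table alone, so reads carry no test. HEK293T, an established human embryonic kidney line, was used throughout. The siEDC4 group holds 2 libraries from cells given siRNA against EDC4, and the siNC group holds 2 libraries from cells given the control siRNA. Libraries of both groups were made with a YEASEN kit from 500 ng of total RNA, extracted with TRIzol, and the labels number each pair as batch 1 and batch 2. All 4 libraries carry PB-TRIBE-STAMP, the study's pair of P-body-directed editors. No library without editors was included, so edits from other deaminases and fixed base differences of the line cannot be separated from the editors' own.

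P-bodies are cytoplasmic granules of untranslated mRNA with the repressors DDX6, LSM14A and EIF4ENIF1 and with the decapping machinery. EDC4 holds DCP1 and the catalytic subunit DCP2 together and links them to XRN1, the exonuclease that degrades decapped mRNA. In TRIBE an ADAR deaminase domain turns adenosine into inosine (A-to-I), and in STAMP an APOBEC deaminase turns cytidine into uridine (C-to-U), so an edited read is a record of an RNA that met the editor. The comparison asks how that record changes when EDC4 is lowered. An editing score is the percentage of a gene's reads that were edited.

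EDC4 itself was listed but stayed under the minimum of reads after its knockdown. Its reads in the A-to-I table were 245 and 186 in the siEDC4 libraries and 684 and 609 in the siNC libraries. In RPM (reads scaled to the total of the table) that was 40.6 and 32.7 against 109 and 106, so both siEDC4 libraries were low, in the direction of the labels. With so few reads its A-to-I score rested on 3 and 2 edited reads in the siEDC4 libraries and on 6 and 6 in the siNC libraries.

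Members took 5245430 to 5766475 reads per library, 91.9 to 92.3% of the reads in the A-to-I table, with a median of 482 to 533 reads per member. The 20 members nearest the minimum, such as BTBD9 and CEP70, had 200 reads in their lowest library, and the 17 genes just under it, such as CITED2, had 199. Of the members, 7117 also reached 200 reads in every library of the C-to-U table. Median edited reads over the 4 libraries were 28 for A-to-I and 42 for C-to-U. A-to-I edited reads were present in all 4 libraries for 6003 members and in none for 58, and C-to-U edited reads in all 4 for 6543 and in none for 14. HEK293T markers were listed for 7 of 10 genes at 751 to 880 RPM. Of the fibroblast markers only COL1A1 was listed (1 of 8, 49.3 to 59.2 RPM), and of the epithelial tumour line markers KRT8 and KRT18 (2 of 8, 124 to 167).

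Before the editing comparison the libraries of each group were set against each other. Chi-square over degrees of freedom for the reads of the siNC libraries was 1.02 in each table (p = 0.062 and 0.047 over 10642 and 10832 genes), close to sampling noise, and that of the siEDC4 libraries was 3.46 and 3.48. The siNC reads were therefore summed and counted as 1 sample in the test, and the spread in that test comes from the siEDC4 libraries. Edited reads differed beyond sampling noise in both groups, at 1.297 and 1.305 for siNC and 1.49 and 1.54 for siEDC4. The summing rested on total reads and leaves the siNC libraries' spread in editing out of the test. Separate cultures are not named in the labels, and p-values therefore reflect only the spread among these 4 samples, which may be technical.

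Editing across the members was higher after EDC4 knockdown in both siEDC4 libraries, clearly so for A-to-I and by little in siEDC4 2 for C-to-U. The median A-to-I score of members was 1.41% and 1.53% in the siEDC4 libraries and 1.176% and 1.19% in the siNC libraries. Both siEDC4 medians lay above both siNC medians, a mean of 1.47% ± 0.0796 (SD, n = 2) against 1.183%, a ratio of 1.24. The median C-to-U score was 2.27% and 1.97% in the siEDC4 libraries and 1.87% and 1.90% in the siNC libraries. There too both siEDC4 medians were the higher, 2.12% ± 0.211 (SD, n = 2) against 1.88%, a ratio of 1.12, but siEDC4 2 lay close to the controls. With 4 separate libraries an exact two-sided permutation test gives p = 0.333 for each editor, the smallest p this design allows.

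**Figure D1:**
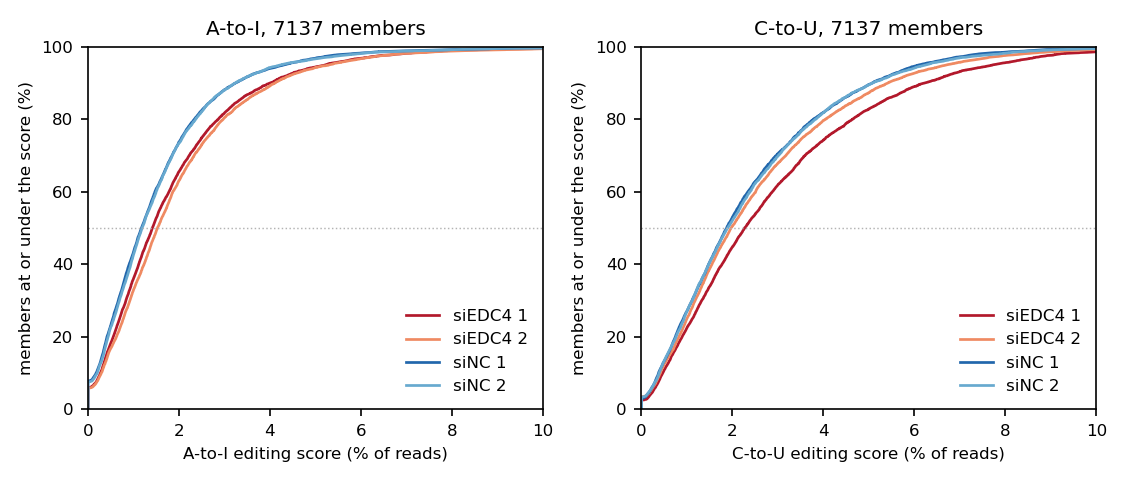
Share of the 7137 members (vertical axis, percent) at or under each editing score (horizontal axis, percent of reads, drawn to 10), 1 line per library, for A-to-I on the left and C-to-U on the right. For A-to-I both siEDC4 lines lie to the right of the overlapping siNC lines, and for C-to-U siEDC4 1 lies to the right while siEDC4 2 runs near the controls.

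The difference was seen along the whole range of scores. Members with an A-to-I score of at least 5% numbered 397 and 407 in the siEDC4 libraries and 222 and 237 in the siNC libraries. Members with no A-to-I edited read numbered 426 and 415 against 552 and 533. Both counts separated the groups without overlap. For C-to-U, 1228 and 903 members reached 5% in the siEDC4 libraries and 743 and 750 in the siNC libraries, while members at 0 numbered 177 and 241 against 210 and 236 and overlapped.

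In single genes the A-to-I scores of both siEDC4 libraries lay above both siNC scores for 2315 members (32.4%; 26.9% of all 10643 genes listed) and below both for 558 (7.82%; 7.83% of all). For C-to-U, 1979 members lay above (27.7%; 23.5% of all 10833 genes listed) and 737 below (10.3%; 9.81% of all). When each library was first centred on its own median, the split became nearly even, 1247 above and 1262 below for A-to-I and 1353 above and 1219 below for C-to-U. With only 2 libraries per group, full separation of a single gene is common even where nothing changed. Groups that do not overlap in a gene are therefore described below and are not a call. Without centring, the shift in the log2 odds ratio of siEDC4 over siNC, the median over members, was 0.32 (A-to-I) and 0.19 (C-to-U). A separate centring within the fit left 0.019 and 0.005. Scores and log2 odds ratios of single genes below are not centred and still hold that shift. Taken alone, siEDC4 1 exceeded both controls in 47.7% of members for A-to-I and 52.0% for C-to-U, and siEDC4 2 in 53.5% and 39.9%. The library with the higher score thus differed between the editors.

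In the fit on edited and unedited reads (edgeR quasi-likelihood test, Benjamini-Hochberg adjustment over all genes tested) no gene passed an adjusted p of 0.05, 0% of 9271 genes for A-to-I and 0% of 9745 for C-to-U. Among the 6917 members tested for A-to-I, 402 were higher and 39 lower at an unadjusted p under 0.05. Among the 7076 tested for C-to-U, 276 were higher and 52 lower. An unadjusted threshold of 0.05 passes some genes even where none changed, so such counts are not calls. The smallest adjusted p of a member was 0.36 for A-to-I and 0.99 for C-to-U. DESeq2 called 1 member for A-to-I, RPL7A, and 0 for C-to-U, where 76 were higher and 25 lower at an unadjusted p under 0.05. The median log2 odds ratio was 0.32 over the 6917 members tested for A-to-I, beside 0.30 over all genes tested, and 0.19 over the 7076 tested for C-to-U, beside 0.19 over all. With genes that had a group at 0 set to their bound (3 counts over the group), the medians were 0.31 and 0.19. Leaving out siEDC4 1 lowered the C-to-U median to 0.08, and the A-to-I median stayed between 0.24 and 0.35 when any one library was left out.

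A fit of all 4 libraries that gave the batch number its own effect on the edited share (the replicate block) passed 26 members for A-to-I, 25 higher (0.27% of genes tested) and 1 lower (0.0108%). It passed 4 for C-to-U, 3 higher (0.0308%) and 1 lower (0.0103%). None of these 26 and 4 members passed the fit with siNC summed, in which the smallest adjusted p was 0.36 for A-to-I and 0.99 for C-to-U (edgeR). Genes passed by this fit were chosen for naming after their values were seen.

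**Figure D2:**
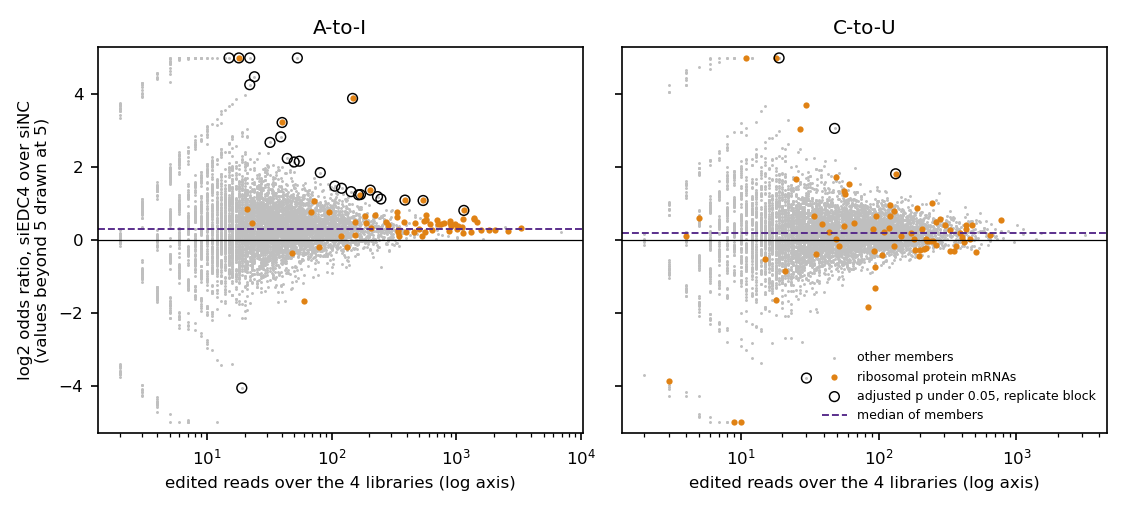
Log2 odds ratio of siEDC4 over siNC (vertical axis, values beyond 5 drawn at 5) against edited reads over the 4 libraries (horizontal log axis) for each member tested, A-to-I on the left and C-to-U on the right. Orange points are cytosolic ribosomal protein mRNAs, circles mark members passed by the replicate block fit (26 for A-to-I and 4 for C-to-U), and the dashed line is the members' median, 0.32 and 0.19.

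Decapping and P-body genes came first, because EDC4 belongs to that machinery. No member of the group passed either fit for either editor. DCP2, the decapping enzyme (chromosome 5, 112976702 to 113022195, hg38), had A-to-I scores of 7.95% and 7.03% in the siEDC4 libraries and 4.57% and 5.16% in the siNC libraries. Both siEDC4 scores were the higher, with a log2 odds ratio of 0.67 ± 0.288 (SE; edgeR adjusted p = 0.82). Its C-to-U scores of 6.55%, 5.76%, 5.68% and 5.995%, in the same order of libraries, overlapped, with a log2 odds ratio of 0.08 ± 0.305.

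LSM14A, an mRNA-binding repressor of P-bodies (chromosome 19, 34172504 to 34229288), showed A-to-I scores of 4.14% and 4.71% in the siEDC4 libraries against 3.199% and 2.83%. Each siEDC4 score exceeded both controls, with a log2 odds ratio of 0.57 ± 0.274 (edgeR adjusted p = 0.82), and its C-to-U scores of 5.35%, 4.07%, 4.60% and 4.08% overlapped. EIF4ENIF1, which binds eIF4E and carries it into P-bodies, had 3.54% and 4.30% against 1.89% and 2.11% for A-to-I, from 12 and 12 against 6 and 6 edited reads. AGO2, the effector of miRNA silencing, had 4.24% and 4.27% against 2.99% and 3.21%. CNOT1, the scaffold of the CCR4-NOT deadenylase, had 2.17% and 2.28% against 1.61% and 1.51%. In all 3 the groups did not overlap for A-to-I, and their log2 odds ratios were 0.98 ± 0.520, 0.47 ± 0.282 and 0.52 ± 0.292.

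DDX6, the RNA helicase at the centre of P-body repression (chromosome 11, 118747763 to 118791164), had A-to-I scores of 2.06% and 2.79% in the siEDC4 libraries and 2.27% and 2.07% in the siNC libraries. Its groups overlapped, also for C-to-U (1.78%, 1.04%, 1.62% and 1.06%), with log2 odds ratios of 0.15 ± 0.295 and 0.03 ± 0.480. XRN1 was the reverse of DCP2 in which editor separated the groups: its C-to-U scores were 4.45% and 4.87% against 3.27% and 2.81%, while its A-to-I scores of 3.17%, 3.86%, 3.10% and 3.47% overlapped. Its C-to-U log2 odds ratio was 0.63 ± 0.362, and that for A-to-I was 0.10 ± 0.375. The direct test of the difference between editors did not pass for DCP2 or XRN1 (edgeR adjusted p = 1 for both).

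DCP1A, the activating partner of DCP2, stood high for A-to-I in siEDC4 1 alone, at 5.57%, beside 2.91% in siEDC4 2 and 3.02% and 3.27% in the siNC libraries. EDC3 (2.67% and 3.23% against 2.23% and 3.31%) and PATL1 (2.28% and 2.23% against 1.98% and 2.33%), both enhancers of decapping, overlapped. TNRC6A, the GW182 partner of AGO2, had A-to-I scores of 2.55% and 2.65% against 2.09% and 2.01%. LSM14B was the only one of the 12 members among these named genes with both siEDC4 scores below both controls for A-to-I, 0.43% and 0.48% against 0.50% and 0.65%, from 2 or 3 edited reads per library. DCP1B was listed but not a member, with 0 to 4 edited reads per library.

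**Figure D3:**
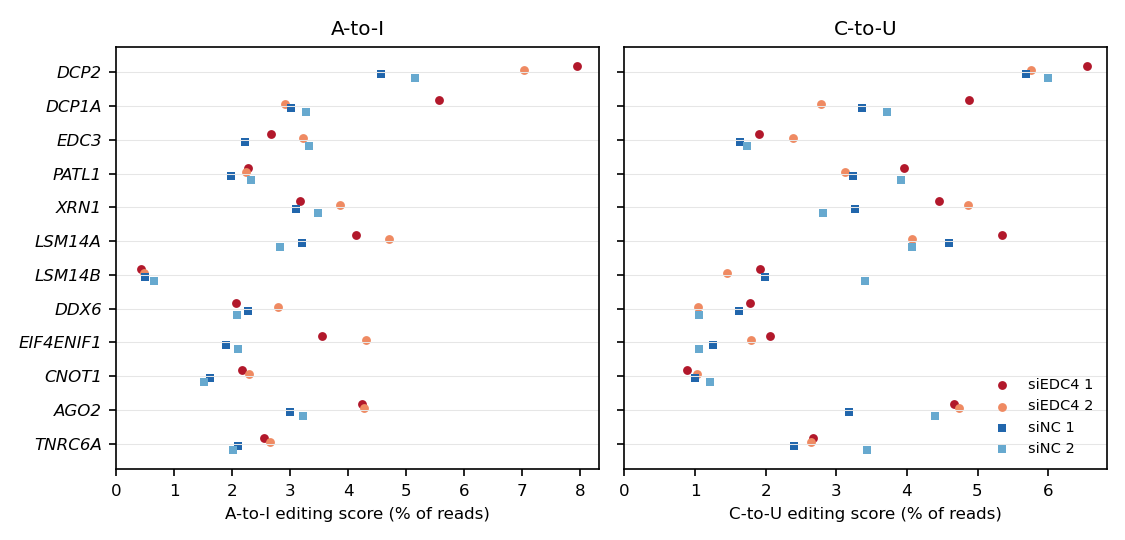
A-to-I (left) and C-to-U (right) editing score (horizontal axis, percent of reads) of the 12 decapping and P-body members in each library, siEDC4 as circles and siNC as squares. For A-to-I the circles of DCP2, LSM14A, EIF4ENIF1, CNOT1, AGO2 and TNRC6A lie to the right of both squares, and for C-to-U those of XRN1, EDC3, EIF4ENIF1 and AGO2 do.

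As lists, these genes stand beside 32.4% above and 7.82% below of all members for A-to-I and 27.7% and 10.3% for C-to-U. After centring, the shares of all members were 17.5% above and 17.7% below for A-to-I and 19.0% and 17.1% for C-to-U. Of 21 members among P-body repressors and scaffolds, 6 lay above and 1 below for A-to-I (3 and 1 after centring) and 7 above and 4 below for C-to-U (4 and 5 after centring). Of the 6 decapping members 2 lay above and 0 below for each editor, and after centring 2 and 2 for A-to-I and 1 and 1 for C-to-U. Their median log2 odds ratios for A-to-I were 0.26 and 0.26, beside 0.32 over all members. Among 17 deadenylase members 3 lay above and 1 below for A-to-I (3 and 4 after centring), and 6 above and 2 below for C-to-U (4 and 3 after centring). CNOT8, a catalytic deadenylase, had C-to-U scores of 3.92% and 3.46% against 1.08% and 0.55% and a log2 odds ratio of 2.20 ± 0.501. It did not pass the replicate block fit (adjusted p = 0.069, edgeR). PARN, another deadenylase, was lower for A-to-I, at 1.03% and 0.57% against 1.71% and 2.49%, without passing.

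Cytosolic ribosomal protein mRNAs, which encode the subunits of the ribosome and carry a 5′ terminal oligopyrimidine tract, were represented by 74 of 81 genes. The A-to-I scores of both siEDC4 libraries lay above both controls in 56 of them (75.7%, beside 32.4% of all members) and below in 2 (2.703%). Their median A-to-I score was 3.71% and 3.68% in the siEDC4 libraries and 2.50% and 2.50% in the siNC libraries. All edited reads of the group over all its reads gave 4.13% and 4.20% against 3.17% and 3.12%, so neither summary overlapped. The median log2 odds ratio was 0.46 over the 66 tested, beside 0.32 over all members, with 62 above 0 and a middle range of 0.28 to 0.62. It was 0.16 after each library was centred on its median, when 24 lay above (32.4%, beside 17.5% of all members) and 11 below (14.9%, beside 17.7%). Without any one library it lay between 0.41 and 0.47. Small subunit genes (22 above and 1 below of 29) and large subunit genes (34 above and 1 below of 45) gave like counts.

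For C-to-U the same 74 mRNAs gave 11 above (14.9%, beside 27.7% of all members) and 8 below (10.8%). Their median C-to-U score was 1.38% in siEDC4 1, 0.78% in siEDC4 2, 0.82% in siNC 1 and 0.97% in siNC 2. Only siEDC4 1 stood high, and siEDC4 2 was the lowest of the 4. The median log2 odds ratio of 0.17 (0.20 with genes at 0 in a group set to their bound) turned to -0.16 without siEDC4 1 and to -0.01 after centring, so no direction held for this editor.

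**Figure D4:**
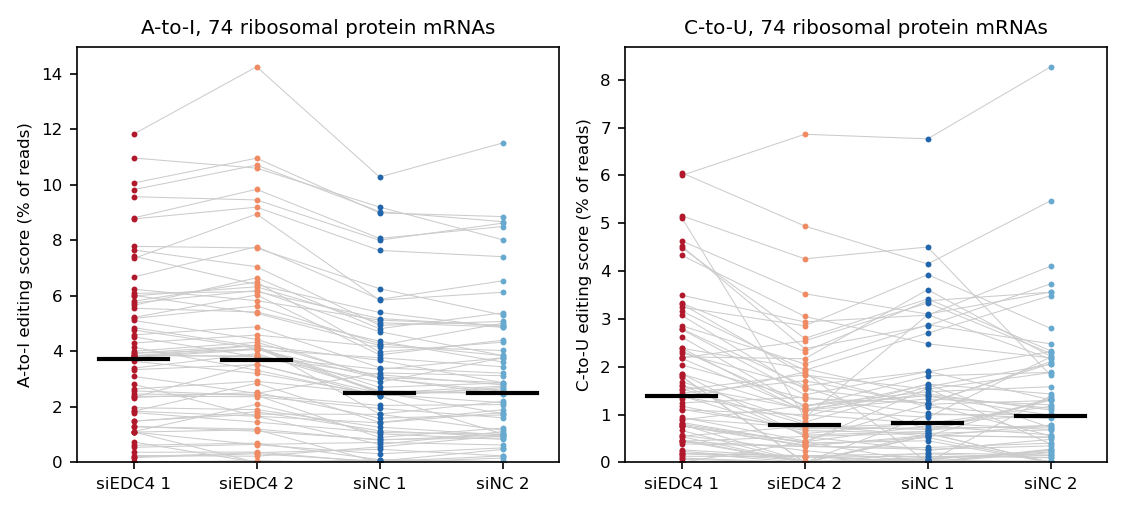
Editing score (vertical axis, percent of reads) of the 74 cytosolic ribosomal protein mRNAs in each library, A-to-I on the left and C-to-U on the right; a grey line joins the values of 1 mRNA and a black bar marks the library's median. The A-to-I bars stand at 3.71% and 3.68% in siEDC4 and at 2.50% in both siNC libraries, whereas for C-to-U only siEDC4 1 stands high, at 1.38%.

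Ribosomal protein mRNAs are among the most abundant, and separation of the groups was more frequent where more reads were edited. Among members with at least 100 A-to-I edited reads, 427 of 813 lay above (52.5%) and 37 below (4.55%). Of these, ribosomal protein mRNAs gave 52 of 56 above and other genes 375 of 757 (49.5%). At or over the ribosomal protein mRNAs' own median of edited reads, 37 of 37 ribosomal protein mRNAs lay above with a median log2 odds ratio of 0.43, and 19 of 32 other members with 0.27. At or over their median of reads the counts were 34 of 37, beside 48 of 110 other members. These sets were formed after the values were seen and carry no test. Edited reads are summed over both groups, so a member can enter a set of edited reads through the group where it is high.

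Of the 25 members passed higher by the replicate block fit for A-to-I, 8 were ribosomal protein mRNAs. These calls lay mostly in genes with many reads. The 1784 members with the most reads, at least 3308 over the 4 libraries, held 23 of the 25. Members with 2020 to 3306 reads held the other 2. At or over the ribosomal protein mRNAs' median of reads, the fit passed 2 of 110 other members and 4 of 37 ribosomal protein mRNAs. Genes of this family have near-identical processed copies, and how reads with several matches were counted is not given in the sources used here, so each value is uncertain to that extent. RPL7A, a large subunit protein (chromosome 9, 133348218 to 133351426), had 65 and 72 A-to-I edited reads in the siEDC4 libraries and 0 and 10 in the siNC libraries. Its scores were 1.1% and 1.2% against 0% and 0.16%, without overlap, a log2 odds ratio of 3.89 ± 0.407. It had an adjusted p of 0.36 in the edgeR fit and 1.2e-14 with the replicate block. Its C-to-U scores of 1.11%, 0.70%, 0.72% and 0.74% overlapped.

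RPS18, a small subunit protein (chromosome 6, 33272075 to 33276511), had A-to-I scores of 3.94% and 4.22% against 1.74% and 2.20%. Both siEDC4 scores stood well above the controls, with a log2 odds ratio of 1.09 ± 0.271 (edgeR adjusted p = 0.82, 0.0064 with the replicate block). It was also passed by the block fit for C-to-U (adjusted p = 0.0069, edgeR), where its scores of 1.85%, 0.543%, 0.609% and 0% overlapped and siEDC4 1 alone was high. RPS6, the ribosomal target of S6 kinase (chromosome 9, 19375715 to 19380236), had A-to-I scores of 5.12% and 4.43% against 3.04% and 2.46%. Its groups did not overlap, with a log2 odds ratio of 0.82 ± 0.262. Its adjusted p was 0.033 with the replicate block (edgeR) and 0.82 without it.

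RPL39 (2.58% and 2.42% against 0.902% and 1.24%) and RPL23A (2.82% and 1.66% against 0.650% and 1.11%) separated the groups for A-to-I at a similar size. RPL31 rested on few edited reads, 17 and 19 against 3 and 1. RPS13 had 9 and 9 edited reads in the siEDC4 libraries and 0 in both siNC libraries, at least 6.26-fold higher with the floor of 3 counts over the siNC group. The exceptions were RPL37A, at 0.248% and 0.223% against 0.560% and 0.963%, and RPS26, at 3.10% and 2.49% against 3.23% and 3.13%, both lower without overlap and neither passed by a fit. RPLP0, a stalk protein, had C-to-U edited reads only after knockdown, 9 and 9 against 0 and 0. Its A-to-I scores were 3.85% and 3.82% against 3.16% and 2.79%.

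A listed 0 sometimes stood beside many edited reads in the other library of its group. RPS20 had 23 A-to-I edited reads in siEDC4 1 and 0 in siEDC4 2, out of 2091 and 1889 reads. For A-to-I, 19 members in siEDC4 and 14 in siNC had at least 10 edited reads in either library and 0 in the other. C-to-U gave 10 and 10. Among the siNC cases were RPL7A and CKB for A-to-I and RPS18 for C-to-U, each passed by the replicate block fit for that editor. How sites were called and filtered is not given in the sources used here. Limits and folds at a listed 0 therefore hold only where that 0 is a true count.

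The remaining genes passed higher for A-to-I by the replicate block fit were ATP1B3, CBL, CDC7, CHCHD2, CKB, EDF1, EIF1AX, FAM168B, HMGN2, HSPD1, NAA50, NOL8, NRAS, PANK3, PTGES3, SMAD5 and STOML2. HSPD1, the mitochondrial chaperonin HSP60 (chromosome 2, 197486584 to 197516737), had 28 and 25 edited reads in the siEDC4 libraries and 0 in both siNC libraries, out of 10930 and 10939 reads in the summed groups. Its scores of 0.508% and 0.461% compare with an upper limit of 0.0274% for siNC. They were at least 17.7-fold higher with the floor of 3 counts over the group, if its listed 0 is a true count. The adjusted p was 0.39 in the edgeR fit and 1.6e-08 with the replicate block. Its C-to-U scores of 0.400%, 0.628%, 0.441% and 0.380% overlapped.

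SMAD5, a transducer of BMP signals (chromosome 5, 136132845 to 136188747), rested on many edited reads, 161 against 72. Its A-to-I scores were 6.77% and 7.28% against 2.83% and 3.53%, a log2 odds ratio of 1.20 ± 0.286 (edgeR adjusted p = 0.82, 0.024 with the replicate block). PANK3, a kinase of coenzyme A synthesis, had 4.62% and 4.14% against 1.58% and 2.56%, and CBL, a ubiquitin ligase of receptor kinases, 4.83% and 3.91% against 1.73% and 1.83%. EIF1AX, a factor of start codon scanning, had 3.17% and 2.82% against 0.880% and 1.41%, and NAA50, an N-terminal acetyltransferase, 2.57% and 2.69% against 0.964% and 1.29%. In each of these the siEDC4 scores lay above both controls, at log2 odds ratios of 1.13 to 1.43. NRAS, a small GTPase, separated the groups for both editors: 2.74% and 4.30% against 1.28% and 0.634% for A-to-I, and 7.04% and 7.68% against 3.57% and 4.10% for C-to-U.

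ATP1B3, a subunit of the sodium pump, had 12 and 10 edited reads against 0 and 0 (at least 6.48-fold), and STOML2, a protein of the mitochondrial inner membrane, 9 and 6 against 0 and 0 (at least 5.98-fold). CDC7, CKB, EDF1 and NOL8 each had more than a 1.5-fold gap between their siEDC4 libraries, as did NRAS and RPL23A above. The gap was widest in EDF1, at 0.502% and 2.21%, against 0% and 0.124% in the siNC libraries. HMGN2, a nucleosome-binding protein, had 23 edited reads against 1, PTGES3, the HSP90 co-chaperone p23, 34 against 5, CHCHD2 36 against 8 and FAM168B 78 against 28. The only member passed lower was DIPK1B, with 0% and 0.173% against 1.38% and 1.93%, from 1 edited read against 18. Its log2 odds ratio was -4.05 ± 0.974 (adjusted p = 0.038 with the replicate block, edgeR).

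For C-to-U, B4GALNT3, a glycosyltransferase (chromosome 12, 459939 to 563509), had 5.86% and 4.98% in the siEDC4 libraries and 1.02% and 0.275% in the siNC libraries. The groups lay far apart, with a log2 odds ratio of 3.07 ± 0.579 and an adjusted p of 0.99 in the edgeR fit and 0.0069 with the replicate block. PPP4C, the catalytic subunit of protein phosphatase 4, had 10 and 9 edited reads against 0 and 0, at least 6.65-fold higher, and no A-to-I edited read in any library. FYN, a tyrosine kinase of the SRC family, was lower, at 0.295% and 0% against 1.05% and 3.55%, with 2 edited reads against 28 and the control libraries more than 3-fold apart.

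Members with many edited reads give the most precise values. Their edited reads are summed over both groups, so a member can enter this set through the group where it is high. RPL7A, with most of its A-to-I edited reads in siEDC4, is such a member. With at least 100 A-to-I edited reads the median log2 odds ratio was 0.30 over 813 members, 36 exceeded 1 and 0 lay under -1. With at least 100 C-to-U edited reads it was 0.21 over 1514 members, 22 exceeded 1 and 0 lay under -1. PTAR1, CLOCK and RPS18 exceeded 1 for both editors. PTAR1, which holds a prenyltransferase alpha-subunit repeat, had A-to-I scores of 5.63% and 5.57% against 2.38% and 2.61% and C-to-U scores of 9.20% and 7.61% against 4.94% and 3.11%. CLOCK, the circadian transcription factor, had 6.07% and 8.80% against 3.07% and 3.35% for A-to-I and 9.21% and 5.96% against 3.88% and 3.93% for C-to-U. Neither gene overlapped for either editor, and neither passed: with the replicate block the adjusted p of PTAR1 was 0.058 and 0.087 (edgeR). The gap between the libraries of a pair had a median of 0.23 on the log2 scale of A-to-I scores for both groups (812 members), and of 0.29 for siEDC4 and 0.25 for siNC for C-to-U (1512 members). These gaps are medians of absolute values of single genes. The median changes of 0.30 and 0.21 are of signed values, so the sizes cannot be compared directly.

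No member among those with the highest scores in the siNC libraries passed either fit. ATP5MPL, a small subunit of ATP synthase (chromosome 14, 103912288 to 103928269), had the highest A-to-I scores, 20.9% and 23.3% against 19.6% and 21.04%. Its groups overlapped, as did those of CCDC12 (13.1% and 20.3% against 14.7% and 13.2%), SNRPD3 (14.04% and 13.9% against 11.1% and 16.5%) and CXorf56 (10.2% and 12.7% against 10.8% and 16.7%). MRPS9, a mitochondrial ribosomal protein, lay above both controls, at 17.7% and 18.1% against 17.2% and 14.7%. MRI1, OSGEP and MAPRE3 had both siEDC4 scores below both controls, the last at 6.87% and 6.94% against 14.8% and 9.24%. For C-to-U, SRP9, a subunit of the signal recognition particle, rested on 792 against 718 edited reads and had 14.2% and 13.3% against 12.5% and 12.03%. SH3BGRL, TMED7 and CD99 overlapped. COQ7, SDCBP and TPD52 lay below both controls, and RCAN1 above, with log2 odds ratios from -0.61 to 0.23.

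Other gene groups are given by their counts beside the 32.4% above and 7.82% below of all members for A-to-I and the 27.7% and 10.3% for C-to-U. Counts after centring stand beside 17.5% above and 17.7% below of all members for A-to-I and 19.0% and 17.1% for C-to-U. Of 15 members of nonsense-mediated decay, which removes mRNA with early stop codons, 10 lay above and 0 below for C-to-U, with a median log2 odds ratio of 0.60 beside 0.19 over all members, and 3 above and 1 below for A-to-I. After centring the C-to-U count was 6 above and 0 below, and the A-to-I count was 1 above and 2 below. UPF1, its helicase, had C-to-U scores of 0.716% and 1.01% against 0.129% and 0.433%. PNRC2, which links UPF1 to decapping, had 4.12% and 3.17% against 1.72% and 1.98%. UPF3B had 2.75% and 3.35% against 1.46% and 2.11%. All 3 separated the groups, and no member of the list passed either fit.

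Stress granule genes gave 9 above and 1 below of 17 for A-to-I (3 and 3 after centring) and 3 above and 0 below for C-to-U (3 and 2 after centring). NUFIP2 had A-to-I scores of 5.33% and 4.47% against 2.85% and 2.79%, whereas CAPRIN1 separated the groups for C-to-U, at 2.74% and 3.72% against 1.48% and 1.72%. Translation factors gave 19 above and 3 below of 41 for A-to-I (11 and 8 after centring), with EIF1AX passed by the block fit, and 14 above and 6 below for C-to-U (6 and 7 after centring). Among ubiquitin ligases and deubiquitinases 26 of 51 lay above and 2 below for A-to-I (12 and 6 after centring), and 15 above and 3 below for C-to-U (9 and 5 after centring). OTUD4 (5.35% and 4.78% against 2.69% and 2.95%) and ITCH (5.28% and 6.02% against 2.93% and 3.13%) are examples for A-to-I. The hnRNP and SR splicing proteins gave 16 above and 2 below of 34 for A-to-I (8 and 4 after centring) and 9 above and 3 below for C-to-U (6 and 7 after centring).

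Proteasome subunits were split for A-to-I, 5 above and 5 below of 27 with a median log2 odds ratio of 0.04, and 2 above and 9 below after centring. For C-to-U they gave 10 above and 2 below (7 and 4 after centring), with median scores of at most 0.421% in any library. Nuclear-encoded oxidative phosphorylation genes gave 14 above and 2 below of 60 for A-to-I (7 and 7 after centring) and 15 and 3 for C-to-U (10 and 6 after centring). Zinc finger genes named ZNF gave 27 above and 10 below of 108 for A-to-I (13 and 26 after centring) and 30 above and 22 below for C-to-U (24 and 31 after centring), with median log2 odds ratios of 0.16 and 0.02. For A-to-I, chromatin modifiers gave 24 above and 3 below of 60 (8 and 13 after centring), cell cycle genes 17 and 2 of 43 (7 and 4 after centring) and secretory genes 15 and 2 of 35 (9 and 4 after centring). The lists and their examples were chosen with earlier results of these data known.

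**Figure D5:**
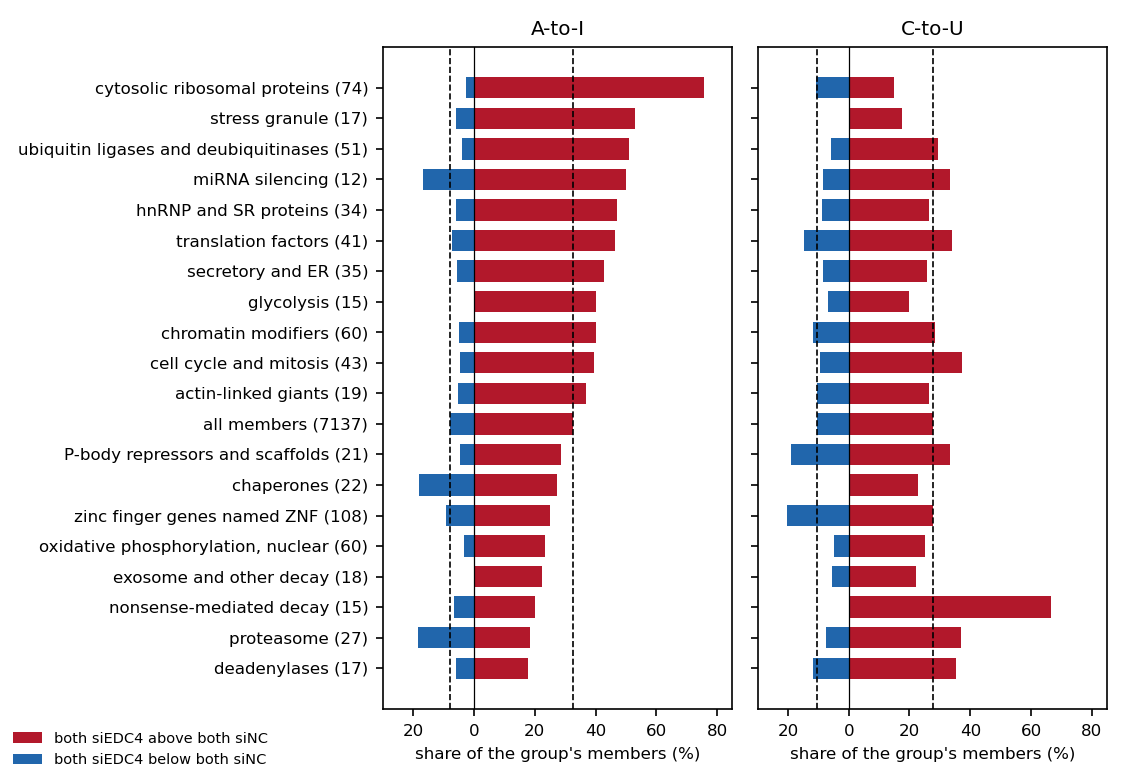
Share of each gene group's members (horizontal axis, percent; number of members in brackets) whose scores in both siEDC4 libraries lay above both siNC libraries (red, to the right) or below both (blue, to the left), A-to-I on the left and C-to-U on the right; dashed lines mark all members. Ribosomal protein mRNAs stand at 75.7% above for A-to-I and 14.9% for C-to-U, and nonsense-mediated decay genes at 20% and 66.7%.

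Whether the editors changed differently in a gene was tested directly on A-to-I against C-to-U edited reads. No gene passed (edgeR, 0% of 9007 genes tested, also with the replicate block). At an unadjusted p under 0.05 the ratio was higher for 88 of the 6870 members tested and lower for 38. DESeq2 likewise called 0. The median log2 change of the ratio was 0.14 over 6870 members. It was 0.28 without siEDC4 1 and -0.0037 without siEDC4 2, so the larger A-to-I difference depended on which siEDC4 library was kept. With each library centred on its median, 4 members passed: HSPD1, RPL7A and RPL14 higher and RPLP0 lower. RPL14 had A-to-I scores of 2.38% and 2.37% against 1.95% and 1.61% and C-to-U scores of 0.538% and 0% against 0.552% and 1.35%.

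GC content, abundance in sorted P-bodies and reads were then set beside the change; of these, reads also chose the members. The 1784 members with the lowest GC content in the gene's longest transcript had 31.3 to 41.2% GC. Both siEDC4 A-to-I scores lay above both controls for 42.0% of them. In the next 3 classes of rising GC the shares were 31.1%, 30.7% and 25.9%. The shares for C-to-U were 33.3%, 28.5%, 26.1% and 23.0%. Edited reads were fewer along the same classes, from a median of 37 to 19 for A-to-I and from 75 to 21 for C-to-U. Among members with at least 100 A-to-I edited reads the shares were 66.8%, 48.0%, 42.3% and 45.2%. The part of edited reads in this pattern was otherwise not tested.

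The study's sorted P-body and cytosol libraries place each member by its abundance in P-bodies. For 1092 members with a log2 ratio of P-body over cytosol CPM above 1, the A-to-I share above was 40.02%, for the 5252 between -1 and 1 it was 30.9%, and for the 793 under -1 it was 31.9%. The median log2 odds ratios were 0.35, 0.30 and 0.34, while median edited reads were 46, 26 and 20. For C-to-U the shares were 31.4%, 27.2% and 26.2% and the medians 0.19, 0.19 and 0.23. Among members with at least 100 A-to-I edited reads the medians were 0.39, 0.28 and 0.28 in the same order of classes, and 0.22, 0.21 and 0.20 for C-to-U. No test was run between the classes. Grouping by the change in reads between siEDC4 and siNC gave shares from 30.0 to 34.5% for A-to-I and from 26.8 to 28.4% for C-to-U. Grouping by reads gave 26.1% in the lowest class and 42.3% in the highest for A-to-I.

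ADARB1, which encodes the deaminase ADAR2, had more reads in the siEDC4 libraries: 528 and 563 RPM, against 407 and 414 in the siNC libraries. Its values moved with the A-to-I difference and did not overlap. ADAR had 544 and 535 against 555 and 563, and APOBEC3C 40.8 and 43.7 against 41.1 and 43.5. Nothing here ties APOBEC3C to the C-to-U editor, so its reads do not stand for that editor's level. Whether reads of ADARB1 come from the editor construct is not given in the sources used here, and their part in the A-to-I difference was not tested.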

How the data were processed

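RNA-seq of 4 HEK293T libraries (siEDC4 1 and 2, siNC 1 and 2) was analysed; the sort's 4 libraries served only to class members. Per the submitters' processing notes the tools were STAR 2.7.9a, featureCounts 2.0.1, cutadapt 1.18 and FastQC 0.11.9, with the build hg38; for site calling, annotation, strand use and reads with several matches no source used here gives the method. The authors deposited edited reads per gene as whole-number counts and raw sort counts, reads per gene (entered as estimated counts, since a few broken lines contain fractions), and editing scores as a fraction, per the file headers. Each score equalled edited reads over reads to within 5.0e-10. The 3 broken lines of ANK2 per table were left out.

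Edited and unedited reads were tested with edgeR 4.0.16 (R 4.3.3; quasi-likelihood, Benjamini-Hochberg, threshold 0.05), modelling each library's reads of a gene and the edited share of each group, over genes edited in at least 2 libraries; it was tested on simulated data. SE is the estimate over the square root of F. The siNC reads were summed as 1 sample. Alternatives were 4 separate libraries, the replicate block, DESeq2 1.42.0, limma 3.58.1 on log2 scores (pseudocount 0.198%, or about 0.04%), other filters, centring and leaving out each library. Because the labels give batch numbers, same-numbered libraries count as paired; their deviations from the group means correlated at 0.028 (A-to-I, 6003 genes) and 0.032 (C-to-U, 6543 genes). Depth sets the precision of each score. Limits at 0 use 3 counts and cover counting error alone, because no molecular identifiers tell PCR copies apart. They do not cover a 0 that arose in site calling or filtering. GC content came from each gene's longest GENCODE 29 transcript, matched for 99.99% of members. Coordinates and length came with the deposited counts.

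Members and lists were chosen with earlier results of these data known. Named by rule were 8 members per editor with the highest siNC score, since fewer than 4 passed, and 14 decapping and P-body genes; others were named after their values were seen. Some items are not reported here. Leaving out a siEDC4 or siNC library assumes that the lone library varies like the others.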

Additional observations from a re-analysis of the deposited data

How the results depend on the processing

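The counts of members called were 0 in each direction for A-to-I, C-to-U and their ratio under the fit with siNC summed, and stayed at 0 with 4 separate libraries, with limma for each editor, and without any one library (0 to 0). The replicate block gave 25 higher and 1 lower for A-to-I and 3 higher and 1 lower for C-to-U, and 0 for the ratio, so pairing by batch changed these calls only. For A-to-I, DESeq2 gave 1 higher, a filter of at least 10 edited reads 2 and centring each library on its median 2 (HSPD1 and RPL7A in both); centring gave 3 higher and 1 lower for the ratio. Causes were not tested. The ratio of median scores was 1.20 to 1.29 (A-to-I) and 1.05 to 1.20 (C-to-U) when a library was left out. The following alternatives were chosen after the data were seen. Centring moved the share of members above from 32.4 to 17.5% for A-to-I and the share below from 7.82 to 17.7%; for C-to-U the share below moved from 10.3 to 17.1%. With at least 100 edited reads these were 52.5% and 4.55% for A-to-I and 5.55% below for C-to-U. For ribosomal protein mRNAs centring gave 32.4% above and 14.9% below (1.79% below at 100 edited reads) for A-to-I and 21.6% below for C-to-U, and their C-to-U median log2 odds ratio reversed to -0.0139 with centring and, when 1 library was left out, ranged from -0.1645 (without siEDC4 1) to 0.4883. For the counts, ratios and shares above, 109 alternatives were classed as unmoved and 19 as moved. For the median log2 odds ratios 32 were classed as unmoved, 6 as moved and 2 as reversed. These classes are loose, and many unmoved counts were 0 under both settings. The C-to-U share above, classed as unmoved, went from 27.7 to 19.0% with centring and to 38.3% with at least 100 edited reads. The C-to-U median, also classed as unmoved, went from 0.19 to 0.08 without siEDC4 1. Limits: 2 libraries per group, with the siNC pair counted as 1 sample; median edited reads per member of 28 for A-to-I and 42 for C-to-U, with a median SE of the log2 odds ratio of 0.33 and 0.35 even at 100 or more edited reads; and no library without editors.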
